A study of Mus musculus with 10 samples.

Results

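The opening stretch of the miR-379 to miR-410 cluster, from miR-379 to miR-667, is a run of microRNA hairpins inside the imprinted Dlk1-Dio3 domain on mouse chromosome 12. Its members were taken by name from a table of mature miRNAs in mouse liver. The names used were those of 15 hairpins of this stretch, and 8 of the 285 rows of the table carried one of them. These were miR-379, miR-411, miR-299, miR-323-3p, miR-494, miR-1193-3p, miR-543 and miR-495, and the other 7 names were not analysed here. Tsc1 mutant livers (5 libraries) are labelled L-Tsc1KO, and control livers (5 libraries) came from littermates. Tsc1 is a subunit of the complex that restrains the growth regulator mTORC1. All mice were 14 weeks old. The sources used here do not give the driver and extent of the Tsc1 deletion, the alleles of the littermates, the strain or the sex. Total RNA of pieces of liver was turned into small RNA libraries and sequenced. The labels do not say outright that each library is a separate animal, so p-values measure the spread between these libraries.

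The Dlk1-Dio3 domain holds protein-coding genes that are read from the paternal chromosome and non-coding RNAs, among them these miRNAs, that are read from the maternal one. The cluster is found in placental mammals, and its miRNAs are known best from brain, placenta and fetal tissues. In mice, loss of the maternal cluster has been described to impair the upkeep of blood glucose after birth, and hepatic miR-379 has been described as raised by glucocorticoids and as acting on lipid transport. A miRNA directs the silencing complex to messenger RNAs mainly through its seed, bases 2 to 8 from the 5′ end.

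The mature sequences of the members are shown because the seed decides which messenger RNAs a miRNA can pair with, and because 6 of the 8 rows name no arm of the hairpin. For those rows both arms are given, since the table does not tell which arm was counted. Only miR-323-3p and miR-1193-3p are named with their arm. Sequences are from RefSeq on GRCm38.p6, where all 8 members had an entry, and run 5′ to 3′ with the seed in capitals.
miR-379-5p: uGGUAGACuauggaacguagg
miR-379-3p: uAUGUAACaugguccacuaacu
miR-411-5p: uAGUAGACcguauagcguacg
miR-411-3p: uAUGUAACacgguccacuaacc
miR-299a-5p: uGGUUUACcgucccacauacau
miR-299a-3p: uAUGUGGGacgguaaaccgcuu
miR-323-3p: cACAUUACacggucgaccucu
miR-494-5p: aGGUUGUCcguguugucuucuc
miR-494-3p: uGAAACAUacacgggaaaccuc
miR-1193-3p: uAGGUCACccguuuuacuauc
miR-543-5p: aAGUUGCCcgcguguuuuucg
miR-543-3p: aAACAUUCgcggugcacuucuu
miR-495-5p: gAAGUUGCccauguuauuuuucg
miR-495-3p: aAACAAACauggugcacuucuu

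One seed was shared between members, that of the 3p arms of miR-379 and miR-411, whose sequences were equal at 20 of 22 positions. With miRNAs of the domain outside this stretch, miR-494-5p shares its seed with miR-410-5p and miR-1193-3p with miR-370-5p. The 3p arms of miR-543 and miR-495 were equal at 18 of 22 positions, end in the same 12 bases and have similar but not identical seeds. Their 5p arms share a run of 9 bases near the 5′ end. The row miR-299 was matched to the hairpin of miR-299a. A hairpin for miR-299b is annotated on the opposite strand at the same place, and both its mature sequences, of 21 and 18 bases, lie wholly within those of miR-299a. Reads of both hairpins could not be told apart in that row.

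All 8 hairpins lie on the plus strand within 9.757 kb of chromosome 12 in GRCm38, at chr12:109709060-109718816. GENCODE places them between the long non-coding genes B830012L14Rik, which ends at 109702587, and Mirg, which starts at 109729764. No annotated gene other than miRNA genes contains any of them. The first 3 are close neighbours, with miR-379 at chr12:109709060-109709125, miR-411 at chr12:109710175-109710256 and miR-299a at chr12:109710638-109710700. The hairpin of miR-323 follows at chr12:109712508-109712593. Next come miR-494 at chr12:109715318-109715402 and miR-1193 at chr12:109715671-109715791. The last measured members are miR-543 at chr12:109717258-109717333 and miR-495 at chr12:109718754-109718816.

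The table gives normalised reads, which are miRNA read counts that the authors divided by 1 factor per library. Mutant libraries held 6489735 to 10901280 miRNA reads, and control libraries 6228497 to 12129069. The liver miRNA miR-122 made up 22.8 to 32.7% of normalised reads in mutants and 24.1 to 37.8% in controls. Messenger RNA of Tsc1 is not part of these libraries, so whether the targeted gene was lost could not be checked. The library numbers of the submitters form 1 block per genotype, so library order and genotype cannot be told apart. Control replicate 2 stood apart. Its 6 biliary and other epithelial miRNAs summed to 36779 normalised reads, against 5035 to 6127 in the other controls and 3165 to 7055 in mutants. Its 3 striated muscle miRNAs summed to 5638, against 268 to 559 in the other controls and 151 to 919 in mutants. The 6 stellate and smooth muscle miRNAs were also highest there, at 369439, against 168823 to 240522 in the other controls and 136276 to 249924 in mutants. None of these miRNAs was at 0 in any library. That library held the highest control value of 7 members, all but miR-1193-3p, so results are also given without it. The part of other tissue in these values was not tested.

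As a group the members were higher in Tsc1 mutant livers. Of the 8, 5 rose and 0 fell at a limma adjusted p of 0.05 over all 285 miRNAs, where 10.9% of all miRNAs rose and 2.11% fell. Among the 254 miRNAs outside the Dlk1-Dio3 domain 3 rose and 6 fell. The members that rose were miR-379, miR-411, miR-299, miR-494 and miR-1193-3p. The 3 that missed the threshold were miR-323-3p, miR-543 and miR-495, each with a positive fold change and an unadjusted limma p under 0.05. The control means of miR-323-3p and miR-495, 5.29 and 5.47, lay below 6.87, the lowest mean of any row over the 10 libraries. If the authors left out low rows, these 2 would be present only through their mutant values, and their direction would be partly fixed. The median log2 fold change of the 8 members was 2.36, which is 5.15-fold, against -0.06 over all 285 miRNAs. In 5 members the mutant values were all above the control values, which held for 10.2% of all miRNAs and for 3 of the 254 outside the domain. Without control replicate 2, 7 members rose, where 31 of all 285 miRNAs rose and 6 fell. The median of the members was then 2.72. In whole liver, more cells that express a miRNA and more of it per cell cannot be told apart.

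**Figure D1:**
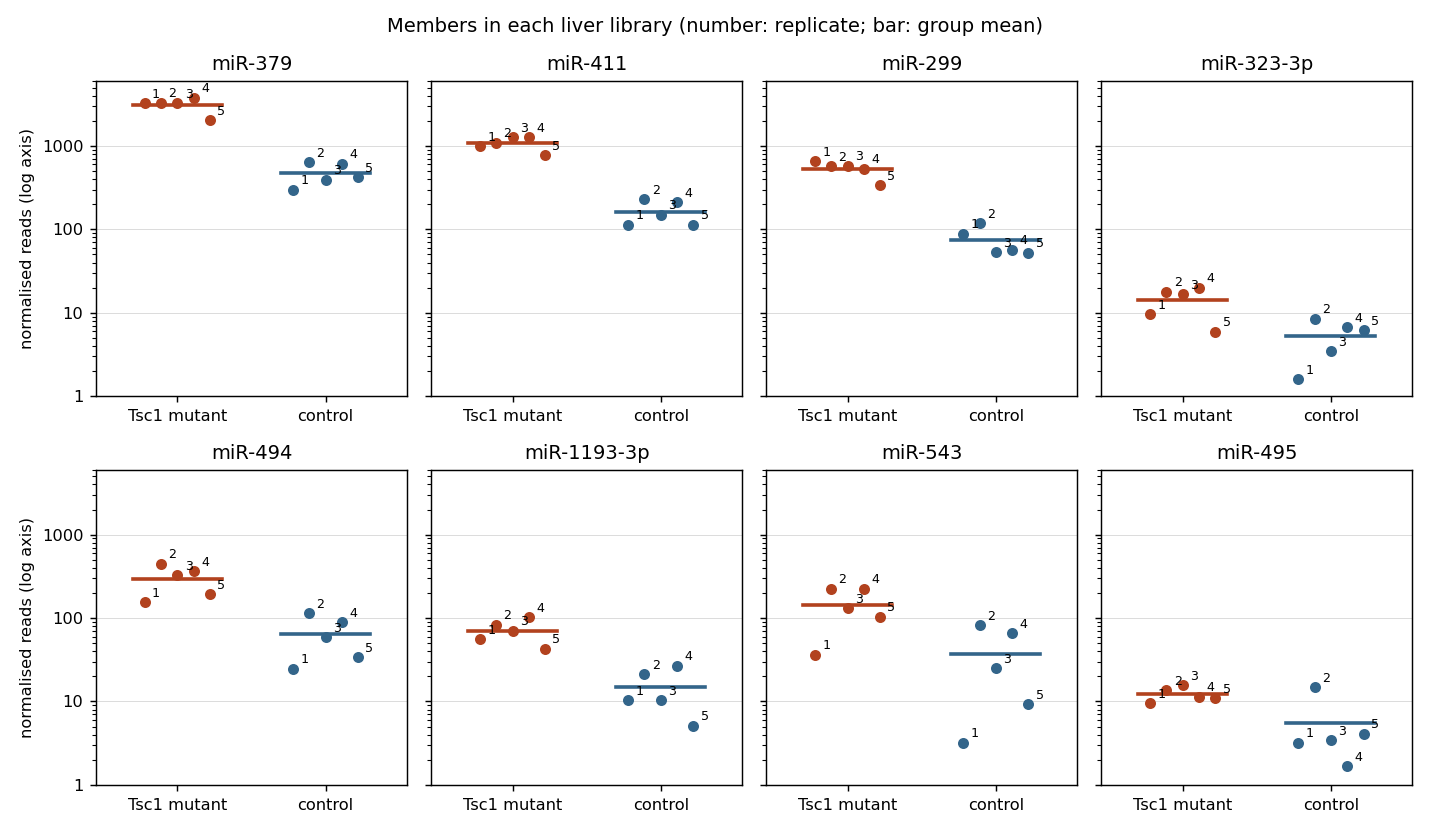
Normalised reads of the 8 members in every library, on a log axis shared by all panels, with Tsc1 mutant libraries left of controls, replicate numbers beside the points and bars at the group means. For miR-379, miR-411, miR-299, miR-494 and miR-1193-3p the mutant points all lie above the control points, and for miR-323-3p, miR-543 and miR-495 they overlap.

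The first hairpin, miR-379, gave the most abundant member. It had 3275, 3306, 3249, 3774 and 2043 normalised reads in mutant replicates 1 to 5, against 299.7, 634, 394, 616 and 425 in control replicates 1 to 5. The groups did not overlap, and the lowest mutant, replicate 5, was well above the highest control. The means were 3129 ± 645 in mutants and 474 ± 146 in controls (SD, n = 5 each). Mutants were thus 6.72-fold higher, at 2.75 ± 0.24 on the log2 scale (SE, limma adjusted p = 1.37e-05).

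Its neighbour miR-411 stood next in abundance. It had 993, 1091, 1282, 1271 and 774 normalised reads in mutants and 113, 228, 150.0, 212 and 114 in controls. Here too mutant replicate 5 was the lowest mutant, and no control came near it. It rose by the same size, at 2.76 ± 0.25 on the log2 scale (SE, limma adjusted p = 1.37e-05).

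For miR-299 the mutant values were 659.6, 572, 577, 533 and 338 normalised reads, and the control values were 88.7, 118, 53.5, 57.2 and 52.3. The groups were again apart. Its log2 fold change, 2.88 ± 0.28 (SE, limma adjusted p = 1.99e-05), was the highest of the members and the 4th highest of all 285 miRNAs. The 3 hairpins at the start of the cluster thus had log2 fold changes within 0.14 of one another.

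Farther along, miR-494 and miR-1193-3p rose as well, with wider spread between livers. The first of these, miR-494, had 156, 447, 326, 367 and 194 normalised reads in mutants and 24.8, 114, 58.6, 89.2 and 33.9 in controls. The lowest mutant, replicate 1, lay above the highest control, replicate 2. Mutants were 4.94-fold higher, at 2.31 ± 0.45 on the log2 scale (SE, limma adjusted p = 0.00335).

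Less abundant, miR-1193-3p had 55.6, 83.2, 70.5, 102 and 42.7 normalised reads in mutants and 10.4, 21.3, 10.3, 26.9 and 5.13 in controls. Its 5 mutant values lay above all control values. Mutants were 4.99-fold higher, at 2.32 ± 0.41 on the log2 scale (SE, limma adjusted p = 0.00195). Its hairpin follows closely on that of miR-494, and their fold changes were alike.

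The member with the widest spread was miR-543, which in mouse neural progenitors is known to act on the adhesion molecule N-cadherin. It had 36.5, 224, 131, 225 and 103 normalised reads in mutants and 3.20, 82.5, 25.0, 65.6 and 9.24 in controls. The highest mutant was 6.17 times the lowest and the highest control 25.8 times the lowest. For miR-379 these were 1.85 times in mutants and 2.12 times in controls. Mutant replicate 1 lay below control replicates 2 and 4, and the other 4 mutants lay above every control. The log2 fold change was 2.41 with a 95% interval of 0.60 to 4.22, close to that of miR-494, and the limma adjusted p was 0.0867. Without control replicate 2 it rose, at 2.88 (limma adjusted p = 0.0369), and without mutant replicate 1 it rose, at 2.83 (limma adjusted p = 0.0475). With both replicates 1 left out it rose as well, at 2.22 (limma adjusted p = 0.0425). Across 22 alternative settings miR-543 missed the threshold in 16, with the highest limma adjusted p, 0.198, without control replicate 5.

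The least abundant members were miR-323-3p and miR-495. For miR-323-3p the mutant values were 9.56, 17.8, 16.8, 20.1 and 5.96 normalised reads, and the control values 1.60, 8.53, 3.45, 6.73 and 6.16. These are counts of 6 to 21 reads per mutant library and 2 to 12 per control library. Mutant replicate 5 lay below 3 of the controls, and the other 4 mutants lay above every control. Its log2 fold change was 1.28 ± 0.43 (SE, 95% interval 0.34 to 2.23, limma adjusted p = 0.0827). Without mutant replicate 5 it rose, at 1.53 (limma adjusted p = 0.0389). Without control replicate 2 it missed the threshold, at 1.47 (limma adjusted p = 0.0557). Across 21 alternative settings miR-323-3p missed in 19, with the highest limma adjusted p, 0.195, without mutant replicate 4.

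For miR-495 the mutant values were 9.56, 13.6, 15.8, 11.5 and 10.9 normalised reads, and the control values 3.20, 14.9, 3.45, 1.68 and 4.10. The counts were 8 to 16 reads per mutant library and 1 to 21 per control library. Control replicate 2 was above 4 of the 5 mutants, and the other controls lay below all of them. On the log2 scale the difference was 1.31 ± 0.42 (SE, 95% interval 0.38 to 2.24, limma adjusted p = 0.0709). Without control replicate 2, the library with the high epithelial and muscle miRNAs, miR-495 rose, at 1.71 (limma adjusted p = 0.00115). Across 21 alternative settings it missed the threshold in 18, with the highest limma adjusted p, 0.162, without mutant replicate 3. Pseudocounts weigh on values this small, and with 5 in place of 1 the log2 fold changes were 0.87 for miR-323-3p and 0.83 for miR-495.

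Summed over the 8 members, the mutants had 5194, 5755, 5669, 6304 and 3512 normalised reads, and the controls had 545, 1222, 698, 1075 and 649.6. The sum was 6.49-fold higher in mutants, a log2 difference of 2.70 ± 0.27 (SE, n = 5 each), and 2.85 without control replicate 2. As a share of miRNA reads the members made up 0.0574 ± 0.0117% in mutants and 0.00884 ± 0.00338% in controls (SD, n = 5 each). Among mutants the share was lowest in replicate 5, at 0.0376%, with an exact 95% binomial interval of 0.0364 to 0.0389%. The highest control share was 0.0142% in replicate 2, with an interval of 0.0135 to 0.0149%. The members are thus a small part of liver miRNA in either genotype, and the shares did not overlap.

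Within the group, the order of levels was alike in the genotypes. A read of a miRNA spans the whole molecule, so levels were compared between members without a correction for length, while differences in how well each sequence is captured were not measured. In all 10 libraries miR-379 was above miR-411 and miR-411 above miR-299. miR-379 alone made up 59.2 ± 2.39% of the members' reads in mutants and 57.2 ± 5.02% in controls (SD, n = 5 each). Below these, miR-299 was above miR-494 in 5 of 5 mutants and 3 of 5 controls, and their ranges overlapped in controls. Next, miR-494 was above miR-543 in 10 of 10 libraries and miR-543 above miR-1193-3p in 8 of 10, although the ranges of both pairs overlapped in both genotypes. At the low end miR-323-3p was above miR-495 in only 5 of 10 libraries, so these 2 had no order.

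Each member was also set against miR-379 within its own library, where the scaling of the library nearly cancels. The difference of such a ratio between genotypes is the difference of the 2 fold changes given above, and what it adds is the spread within libraries. The log2 ratio of miR-411 to miR-379 was -1.53 ± 0.15 in mutants and -1.53 ± 0.21 in controls (SD, n = 5 each). The difference was 0.01 ± 0.12 (SE, exact permutation p = 0.944). That of miR-299 differed by 0.14 ± 0.29 (SE, exact permutation p = 0.683).

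The differences were -0.44 ± 0.34 for miR-494, -0.43 ± 0.31 for miR-1193-3p and -0.34 ± 0.78 for miR-543 (SE), with exact permutation p of 0.270, 0.206 and 0.675. None of these 5 ratios had an exact permutation p under 0.05. With 5 libraries a group and standard errors of this size, differences such as those of miR-494, miR-1193-3p and miR-543 are not excluded.

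The ratio of miR-323-3p to miR-379 did not pass the threshold after adjustment. It ran from -8.28 to -7.46 in mutants and from -6.85 to -5.89 in controls on the log2 scale, with no overlap. The difference was -1.47 ± 0.25 (SE), and the exact permutation test, 2-sided as for all ratios, gave p = 0.00794, the lowest possible with 5 against 5 libraries. Adjusted over the 7 ratios this p was 0.0556, and a single ratio could not have come lower. With no pseudocount the difference was -1.26 ± 0.33 (SE, exact permutation p = 0.0159, adjusted p = 0.111), so part of it comes from the pseudocount. Counted in reads, miR-323-3p had 4.34 ± 1.31 per 1000 reads of miR-379 in mutants and 10.6 ± 3.69 in controls (SD, n = 5 each). On that scale the lowest control, at 5.33, lay just under the highest mutant, at 5.39.

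The ratio of miR-495 to miR-379 differed by -1.44 ± 0.44 (SE), with an exact permutation p of 0.0317 and an adjusted p of 0.111. With no pseudocount it was -1.19 ± 0.53 (SE, exact permutation p = 0.0556). It had 4.05 ± 1.08 reads per 1000 of miR-379 in mutants and 11.1 ± 7.63 in controls, where replicates 2 and 4 stood at 23.5 and 2.73. Neither member passed the threshold after adjustment. Without control replicate 4 the adjusted exact permutation p was 0.0278 for both. Without control replicate 5 it was 0.0278 for miR-323-3p and for miR-1193-3p, whose ratio then differed by -0.70. This value arises when another ratio also reaches the lowest possible p, so it is no gain for miR-323-3p itself. With any other single library left out, the adjusted exact permutation p of miR-323-3p stayed at 0.0556.

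**Figure D2:**
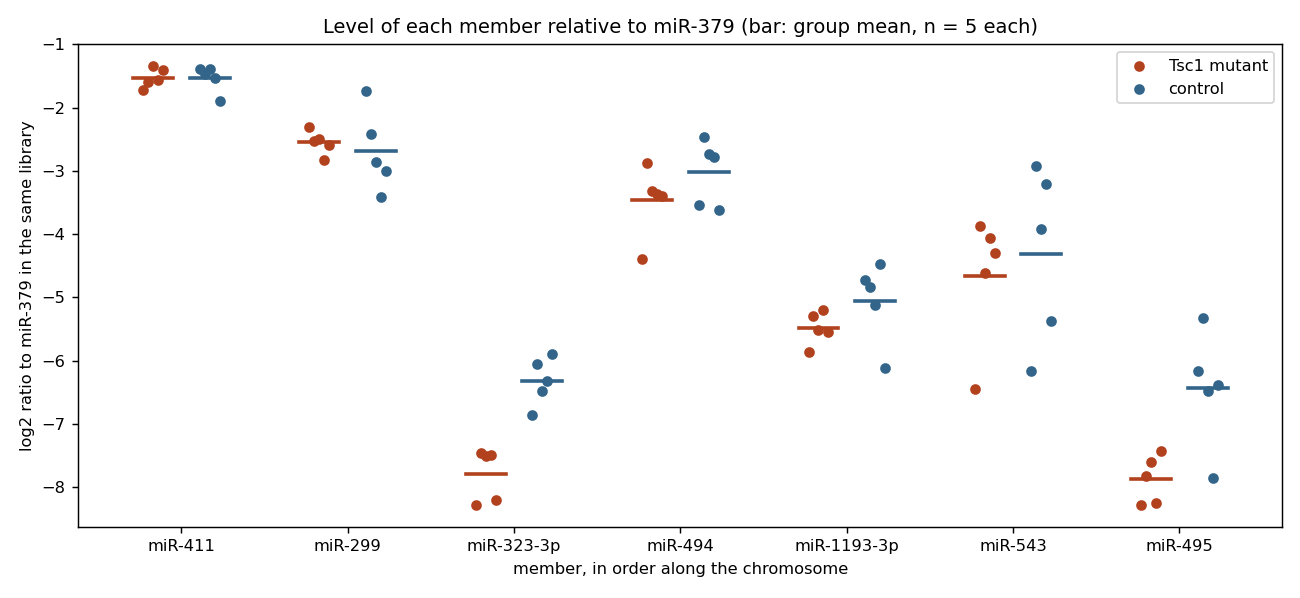
Log2 ratio of each other member to miR-379 in the same library, with Tsc1 mutant libraries left of controls, 5 points a group and bars at the group means. The 2 groups lie at the same height for miR-411 and miR-299 and apart, with mutants lower, for miR-323-3p.

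The rest of the Dlk1-Dio3 domain gives the setting. Its other 23 miRNAs in the table were all called higher, at log2 fold changes of 1.70 to 3.13 around a median of 2.57. Some were low in controls, such as miR-377 and miR-496, with control means of 2.69 and 3.57. A filter on low rows by the authors could have kept such miRNAs through their mutant values and left out others. The 10 that lie before the cluster had a median of 2.62, and the 13 in the rest of the cluster one of 2.55. The members' range, from 1.28 to 2.88, began lower. On either side, miR-370, at -90.8 kb from miR-379, had a log2 fold change of 1.78 ± 0.33 (SE, limma adjusted p = 0.00235), and miR-376b, at 14.4 kb, one of 3.13 ± 0.28 (SE, limma adjusted p = 1.37e-05). The members made up 22.5 ± 0.790% of the domain's reads in mutants and 21.5 ± 1.64% in controls (SD, n = 5 each). Their share of the output of the domain was therefore nearly the same in the genotypes. The series names this domain in its title, so the direction is no independent evidence.

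**Figure D3:**
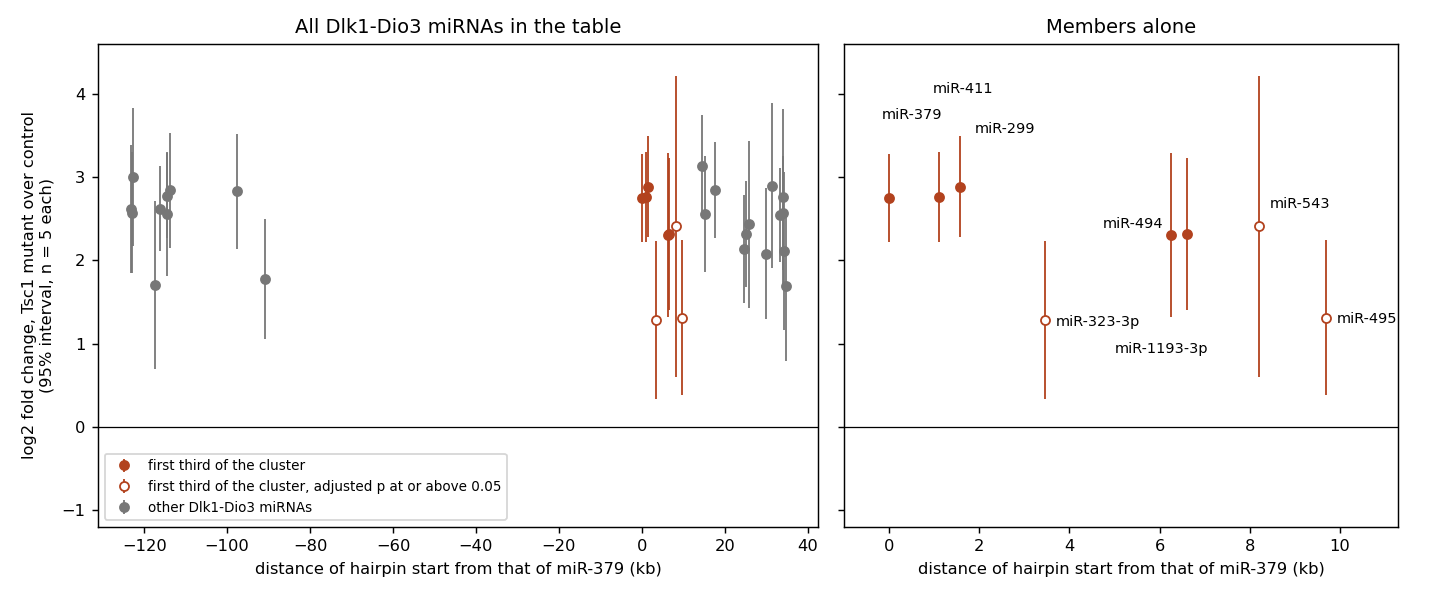
Log2 fold change of Tsc1 mutant over control livers with 95% limma intervals (n = 5 each) against the distance of each hairpin from that of miR-379, for the whole domain on the left and for the members on the right. The filled points of miR-379, miR-411 and miR-299 sit between 2.75 and 2.88. The open points, with adjusted p above 0.05, are miR-323-3p at 1.28, miR-495 at 1.31 and miR-543 at 2.41.

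With genotype means removed, most members varied together from liver to liver, and miR-299 and miR-495 less so. Across the 10 libraries, which share 1 scaling factor each, the correlation of log2 values was above 0 in 28 of 28 pairs of members, with a median of 0.66. Over all 40470 pairs of the 285 miRNAs, 20254 were above 0. Among members it was highest for miR-494 with miR-543, at 0.97, and lowest for miR-299 with miR-543, at 0.05. With the other members miR-299 reached at most 0.60, and miR-1193-3p with miR-495 was at 0.13. In control replicate 4 the log2 deviation was -0.97 for miR-495 and 1.54 for miR-543. In mutant replicate 5 all 8 members were below the mutant mean, the median of their log2 deviations being -0.55. In control replicate 2 all 8 were above the control mean, and the median deviation was 0.74. Outside the members, the 3 miRNAs most like miR-379 by this measure were miR-127 (Pearson 0.91, Spearman 0.88), miR-434-5p (0.90 and 0.92) and miR-541 (0.90 and 0.93). All 3 belong to the same domain, and the same 3 came closest to the sum of the members, led by miR-541 (0.97 and 0.99). Of the 20 miRNAs closest to that sum, 15 were of the domain, where the comparison held 23 miRNAs of the domain and 254 others.

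**Figure D4:**
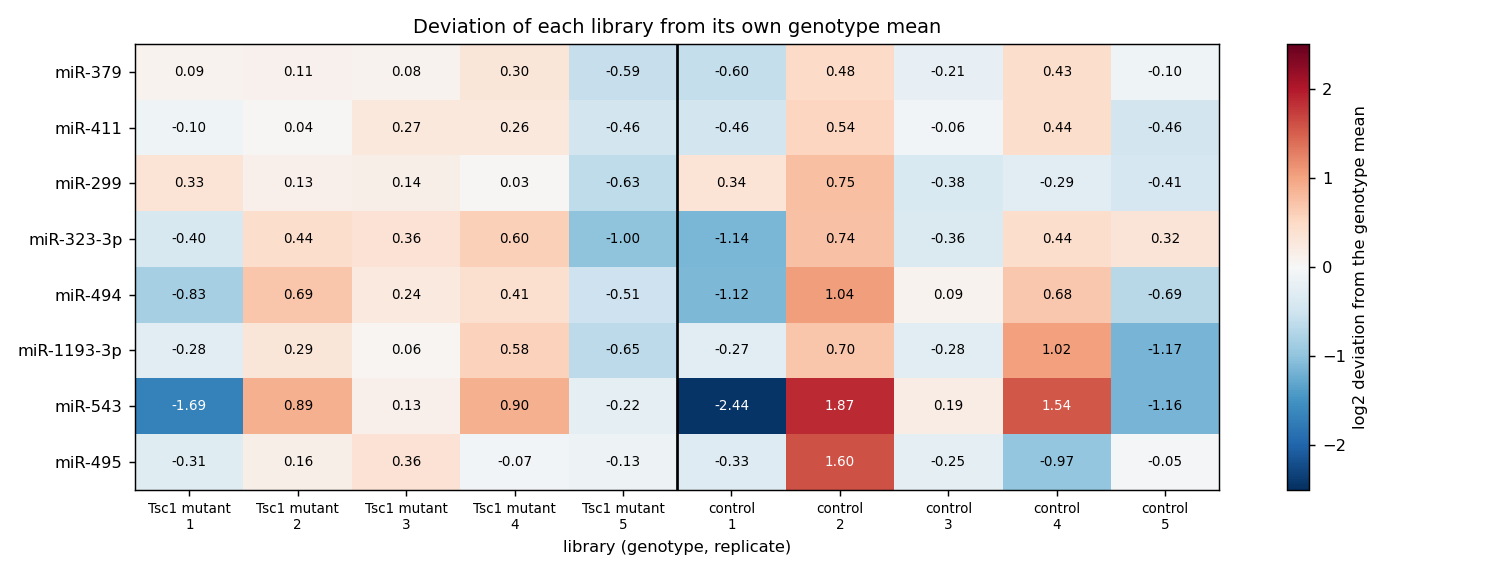
Deviation of each member from its genotype mean on the log2 scale in every library, mutants left and controls right, red above and blue below the mean. Control replicate 2 is above the mean in every row and mutant replicate 5 below it, and miR-543 holds the widest range, from -2.44 to 1.87 in controls.

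Both libraries numbered 1 were low for most members, with median log2 deviations of -0.29 in the mutant and -0.53 in the control. In the mutant 2 of the 8 members were above the mean and in the control 1. The lowest member in both was miR-543, and miR-494 was low as well. The log2 deviation of miR-543 was -1.69 in the mutant and -2.44 in the control, and that of miR-494 was -0.83 and -1.12. For miR-299, in contrast, both were above the mean, by 0.33 and 0.34. The let-7 family, abundant miRNAs of other loci, was low in the same libraries, with median deviations of -1.17 in the mutant and -1.48 in the control. The part of whatever set these libraries apart in the values of miR-543 and the other members was not tested.

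Lists of miRNAs that mark cell types and tissues were set beside the members. Of the 4 hepatocyte miRNAs 1 rose, miR-802, and the log2 fold change of miR-122 was -0.21 (limma adjusted p = 0.608). The cluster is abundant in brain, and of 5 neural miRNAs 1 rose, miR-137, while their median was -0.43 and their most abundant member, miR-128, was at -0.43. Their log2 fold changes went both ways, from -0.83 to 0.90, and 3 of the 5 had an unadjusted limma p under 0.05. The sum of the neural list ran from 850 to 1446 normalised reads in mutants and from 958 to 2024 in controls. The part of any cell type in the values of the members was not tested. None of the epithelial, striated muscle, leukocyte, stellate, endothelial and erythroid miRNAs listed passed the threshold in either direction. The log2 fold changes of the most abundant of each list were -0.68 for miR-200b, -1.27 for miR-1a, -0.21 for miR-146a, -0.39 for miR-143, -0.02 for miR-126-3p and 0.11 for miR-486. Whole lists ran from -1.16 to -0.68 (epithelial), -1.99 to 0.73 (striated muscle) and -0.47 to 0.49 (leukocyte). The others ran from -0.39 to 0.01 (stellate and smooth muscle), -0.09 to -0.02 (endothelial) and -0.06 to 0.32 (erythroid). Among these lists only 1 striated muscle and 1 leukocyte miRNA had an unadjusted limma p under 0.05.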

How the data were processed

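The deposited table holds a normalised signal for 285 mature miRNAs in 10 libraries. Per the submitters' processing notes the authors used DESeq, with no version given. Aligner, annotation, filters and build are not stated in the sources used here. The values were tested for steps, and each was a whole multiple of 1 step per library within 0.001, and dividing by that step gave whole reads. A value of 3 reads, the floor used here, was worth 2.13 to 5.05 normalised reads. Binomial intervals and floors cover counting error only, while the limma intervals of fold changes cover the spread between libraries.

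Columns were matched to samples by library number. Log2 values with a pseudocount of 1 were fitted with limma 3.58.1 in R 4.3.3, by genotype, with an intensity trend and Benjamini-Hochberg adjustment over all miRNAs. The filter, a mean of at least 5, removed 0 rows. The lowest mean of any row was 6.87, and whether low rows had been removed by the authors is not known. Fold changes on this scale understate those of low miRNAs. The fit was tested on simulated data. Ratios to miR-379 were compared by 2-sided exact permutation tests.

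The members and lists were chosen with earlier results of these data known. Every row found by the name rule is named, with the 3 miRNAs outside it that are most alike in pattern, the neighbours in the domain, and the most abundant miRNA of each marker list. miR-137 and miR-802 are named as the only calls of their lists, after their values were seen. Hairpin positions are from GENCODE M21 on GRCm38. Alternatives were other pseudocounts, filters, scalings and limma settings, a replicate block and left-out libraries. Voom on whole reads and ratios with no pseudocount were added after the data were seen. Figures were drawn with matplotlib 3.10.9.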

Additional observations from a re-analysis of the deposited data

Results flagged for a closer look

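Among 18 groups of 5 values, the 8 members and their sum in each genotype, 1 held a library far from the other 4, where chance gives about 0.9. It was control replicate 2 for miR-495, at 14.9 normalised reads against 1.68 to 4.10 in the other controls, a gap of 0.82 of the whole range. In that library the count was 21 reads. The gap was taken on normalised reads, not on the log2 values used in the fits, where it is smaller. The figure of 0.9 treats the groups as independent and normal, while the sum contains its members and several counts are low.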

How the results depend on the processing

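The number of members that rose was 5 in most of the 22 other settings. It was 8 with array weights, 7 without control replicate 2, 7 with both replicates 1 and control replicate 2 left out, and 6 with the replicate block, without mutant replicate 1 or 5, and with both replicates 1 left out. No member fell in any setting. The calls of miR-379, miR-411, miR-299, miR-494 and miR-1193-3p held in all 22. The median log2 fold change ran from 2.13 to 2.72, and the log2 difference of the sum from 2.56 to 2.85 in its 16 settings. With array weights miR-323-3p (1.29), miR-543 (2.59) and miR-495 (1.52) passed, and with both replicates 1 and control replicate 2 left out miR-543 (2.64) and miR-495 (1.81) did. Over all 285 miRNAs, 31 rose and 6 fell, against 40 and 23 with array weights and 35 and 10 with the block. With single libraries left out 28 to 34 rose and 2 to 10 fell. With both replicates 1 left out 35 rose and 11 fell, and with control replicate 2 left out too 36 rose and 13 fell. A filter at a mean of 20 removed miR-323-3p and miR-495. The replicate numbers were not taken to pair the libraries, because not every correlation of same-numbered deviations was over 0.1. They were 0.81, 0.16, -0.02, 0.46 and 0.05 for numbers 1 to 5, and mutants 1 and 4 correlated best with the controls of their own number, the other 3 with another. With the replicate block miR-543 passed at 2.41 (limma adjusted p = 0.000592). Ratios near 0 changed sign. That of miR-411 to miR-379 was -0.012 with a pseudocount of 5 and between -0.079 and 0.058 with single libraries left out. So left out, that of miR-299 ran from -0.044 to 0.37 and that of miR-543 from -0.80 to 0.11. With a pseudocount of 5 the ratios of miR-323-3p (-1.87) and miR-495 (-1.91) passed (adjusted exact permutation p = 0.0278 for both). Both then stood at the lowest possible p, where a single ratio alone would not pass after adjustment. A paired exact test over 5 pairs cannot go below 0.0625. Counts of 1 to 21 reads limit miR-323-3p and miR-495.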

Other observations

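The miRNAs most like miR-543 over the 10 libraries, with genotype means removed, were looked at after its wide spread was seen. They were miR-409-5p of the same domain (Pearson 0.93), miR-191 (0.91) and miR-337-5p of the domain (0.90). Of the 20 miRNAs closest to miR-543, 3 were of the domain, against 8 of the 20 closest to miR-494 and 14 of the 20 closest to miR-379. Outside the members the comparison held 23 miRNAs of the domain and 254 others, so 3 of 20 is not far above the share of the domain. The genotype difference of miR-191 was -0.08 ± 0.45 on the log2 scale (SE, n = 5 each, limma adjusted p = 0.961). The libraries share their scaling and composition, and no test was made of these correlations.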
